A study of Mus musculus with 12 samples.

Results

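Alveolar type 2 (AT2) cells that lacked Atg5 and had been injured with bleomycin (BLM) were compared with uninjured AT2 cells from mice that could express Atg5, to see which features of the injured state were present when autophagy was absent. The comparison uses 6 of the 12 samples of the series, 3 labelled Atg5-/- AT2-BLM and 3 labelled AT2-PBS, taken by their sample titles. The 6 other samples, 3 of AT2-BLM and 3 of Atg5-/- AT2-PBS, entered the same model and are given beside it as reference levels. AT2-PBS cells came from Atg5 f/f mice that received PBS, and the labels call this genotype wild type. Atg5-/- AT2-BLM cells came from Nkx2.1Cre;Atg5 f/f mice that received 2 U/kg BLM in the trachea. AT2-BLM cells came from Atg5 f/f mice given BLM, and Atg5-/- AT2-PBS cells from Nkx2.1Cre;Atg5 f/f mice given PBS. All 4 groups were labelled C57BL/6 and carried floxed Atg5 alleles. The methods give day 14 for both compared groups and for AT2-BLM, and male mice of 8 to 12 weeks for BLM experiments. Nkx2.1-Cre acts from lung development onward in the whole lung epithelium and also in thyroid and ventral forebrain, so deletion was neither restricted to AT2 cells nor timed to the injury. The sort kept EpCAM+ cells that were negative for CD31, CD34, CD45, CD24 and Sca-1. Genotype and treatment both differ between the compared groups, so their contributions to this contrast cannot be told apart from these 6 samples alone. The titles number the samples of a group without naming the mice behind them, and p-values measure only the spread between these samples.

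AT2 cells make and store surfactant in lamellar bodies and can divide and give rise to flat alveolar type 1 (AT1) cells after injury. BLM breaks DNA, and injured AT2 cells are known to activate p53 targets and to pass through a transitional state marked by keratins and Cldn4 on the way to AT1 cells. Autophagy encloses cytoplasm in double membranes and delivers it to lysosomes, and Atg5 is part of the conjugate that attaches LC3 to those membranes.

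FPKM, the fragments counted on a gene scaled to its length and to the size of the library, summed to between 390141 and 417255 in AT2-PBS and between 395859 and 445470 in Atg5-/- AT2-BLM. Steps of the low values put relative depth between 0.993 and 1.16 over the 12 libraries, and no read counts were used. 9 of 10 AT2 markers could be tested, and their summed FPKM were 24668, 36827 and 26195 in AT2-PBS and 34648, 33129 and 36960.4 in Atg5-/- AT2-BLM. Over all 10 markers, AT2-BLM replicate 2 summed to 154180 FPKM, against 42243 and 25060 in the other AT2-BLM libraries. The cause of that difference was not tested. Sftpc, the defining AT2 gene, is listed at 0 in all 6 libraries, whereas Sftpb was abundant in each (values below). These 0 values do not show that Sftpc was silent in the cells. Krt14, a keratin on the mesothelium list, is also listed at 0 in the 6. Atg5 itself stood at 12.5, 6.01 and 11.5 FPKM in AT2-PBS and 8.84, 8.46 and 8.37 in Atg5-/- AT2-BLM (log2 fold change -0.15, standard error 0.23, adjusted p = 0.759), overlapping levels that do not by themselves show the deletion. In 1 library of each compared group (replicate 1 of both) the Y-linked genes summed to 0.121 and 0.168 FPKM, against 15.3 and 14.2 in the others of AT2-PBS and 14.2 and 18.3 in those of Atg5-/- AT2-BLM, although the methods state male mice. AT2-BLM replicates 1 and 2 were also near 0 (0.133 and 0.0552 FPKM, against 20.9 in replicate 3). So were all Atg5-/- AT2-PBS libraries (0.449, 0.733 and 0.507 FPKM). These libraries stayed in where the near-0 libraries of the compared groups were left out. Islet and acinar genes summed to 3362 FPKM in AT2-PBS replicate 1, against 4.77 and 4.06 in the other AT2-PBS libraries and 7.01, 184 and 58.7 in Atg5-/- AT2-BLM. In Atg5-/- AT2-PBS they summed to 3313, 3317 and 82.4 FPKM, so replicates 1 and 2 of that reference group held them at a similar level.

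Of 10675 genes tested, 1849 were called in the comparison of Atg5-/- AT2-BLM with AT2-PBS. Of all tested genes, 1372 (12.9%) were called higher and 477 (4.47%) lower in the injured Atg5-null cells. A call required an unadjusted p under 0.05 from limma on log2(FPKM + 1) and a fold change of at least 1.4, the criterion of the study. After adjustment by the Benjamini-Hochberg procedure, 386 genes (3.62%) had a limma p under 0.05, and the ranges of the 3 samples against 3 did not overlap for 2481 genes (23.2%). All p-values beside single genes are the adjusted ones, so that a gene may be called and still have an adjusted p above 0.05. The median log2 fold change of all tested genes was 0.11, and it moved to -0.01 with quantile normalization, which called 886 genes higher and 806 lower. Median-ratio scaling called 982 higher and 746 lower, and scaling to Cdh1 called 899 higher and 560 lower. The lean of the calls toward higher expression therefore depends on the scaling, and changes below are best read against these medians. Counts of list members are best read beside the 12.9% called higher and 4.47% called lower of all genes. Without the replicate 1 libraries whose Y-linked genes were near 0, 1772 genes were called higher and 623 lower.

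Against AT2-BLM, which shares the injury and differs in genotype, 551 genes were called in Atg5-/- AT2-BLM, 218 higher (2.04%) and 333 lower (3.12%), with a median of -0.05 over all genes and 1 gene past an adjusted p of 0.05 in limma. Without adjustment, 841 genes had a p under 0.05 in limma. List counts against AT2-BLM are best read beside the 2.04% and 3.12% of all genes. Without AT2-BLM replicate 3 the count fell to 379, 230 higher and 149 lower, and scaling to Cdh1 gave 358 higher and 92 lower. On the second principal component, which held 23% of the variance, AT2-PBS lay at 25.3, 31.5 and 34.8 and AT2-BLM at -28.2, -30.8 and -40.2. The values for Atg5-/- AT2-BLM were -4.94, -14.3 and -21.8, between both groups and overlapping neither. The first component (39.4%) set Atg5-/- AT2-PBS, at 42.2 to 58.9, apart from the 9 other libraries.

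**Figure D1:**
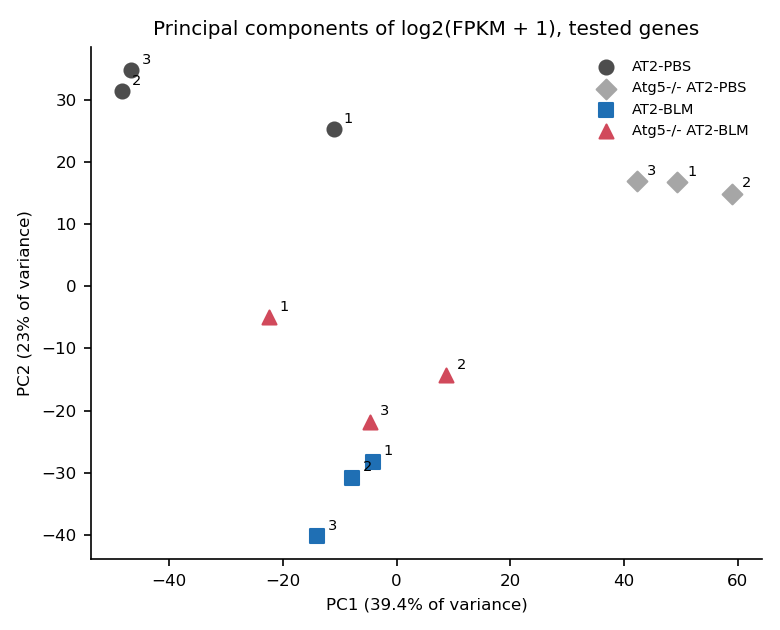
Scores of the 12 libraries on the first 2 principal components of log2(FPKM + 1) over the 10675 tested genes, with the share of variance on each axis and replicate numbers beside the points. On PC2 the 3 Atg5-/- AT2-BLM libraries (triangles, -4.94 to -21.8) sit between AT2-PBS (circles) and AT2-BLM (squares).

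**Figure D2:**
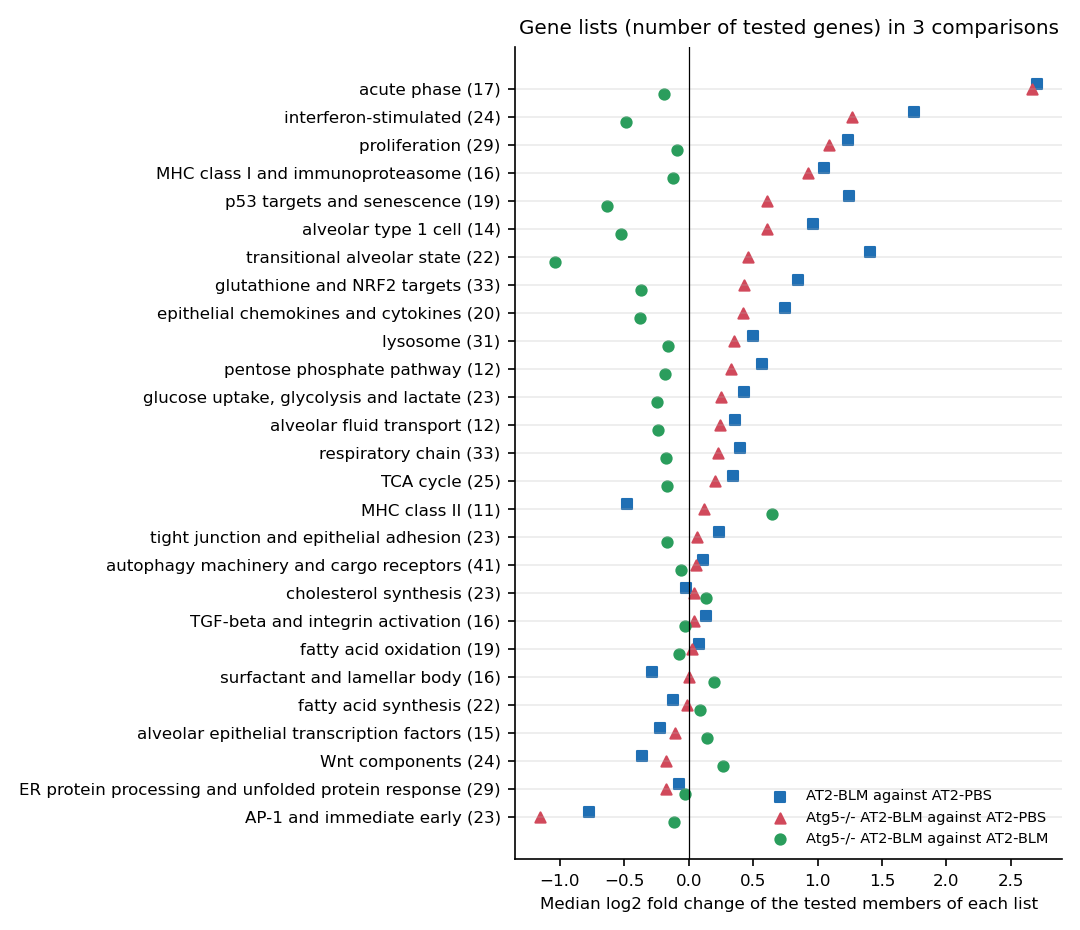
Median log2 fold change (x axis) of the tested members of 27 gene lists, with the number of tested genes in parentheses, for AT2-BLM against AT2-PBS (squares), Atg5-/- AT2-BLM against AT2-PBS (triangles) and Atg5-/- AT2-BLM against AT2-BLM (circles). The medians over all tested genes were 0.17, 0.11 and -0.05, and the comparisons share samples. The acute phase list had medians of 2.71 and 2.67 against AT2-PBS, and the transitional state list had 1.41 and 0.46.

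Targets of p53, the transcription factor that halts the cell cycle after DNA damage, were raised in the injured Atg5-null cells, and most stood below injured wild-type cells. Of the p53 targets and senescence list, 10 of 19 tested members rose and 0 fell against AT2-PBS, a median of 0.61, while 12 were lower and 0 higher than in AT2-BLM. Phlda3, an inhibitor of Akt signalling, had the smallest p of any gene in the comparison. It stood at 3.95, 4.43 and 4.62 FPKM in AT2-PBS and 44.6, 64.9 and 54.2 in Atg5-/- AT2-BLM (log2 fold change 3.37, standard error 0.21, adjusted p = 1.63e-05). The ranges were far apart, and AT2-BLM, at 166, 135 and 155 FPKM, lay higher still, with a log2 difference of Atg5-/- AT2-BLM from AT2-BLM of -1.47 (95% interval -1.92 to -1.02). Uninjured Atg5-/- AT2-PBS cells were at 21.8, 27.6 and 14.8 FPKM, so the gene was also above AT2-PBS without BLM.

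Ccng1, a cyclin G that is a direct p53 target, followed the same order of levels with 14.7, 13.7 and 15.1 FPKM in AT2-PBS and 64.2, 46.3 and 72.2 in Atg5-/- AT2-BLM (log2 fold change 1.97, standard error 0.18, adjusted p = 0.000311). Its AT2-BLM values were 132, 149 and 125 FPKM, all above those of Atg5-/- AT2-BLM (log2 difference -1.16, 95% interval -1.55 to -0.77), and its Atg5-/- AT2-PBS values of 16.2, 22.9 and 21.3 FPKM lay just above AT2-PBS. Gdf15, a stress-induced secreted cytokine, stood at 24.7, 7.80 and 9.68 FPKM in AT2-PBS and 87.6, 97.6 and 56.5 in Atg5-/- AT2-BLM (log2 fold change 2.57, standard error 0.38, adjusted p = 0.0066). Here Atg5-/- AT2-PBS, at 85.1, 137 and 72.9 FPKM, overlapped Atg5-/- AT2-BLM, and AT2-BLM was at 223, 219 and 140.1 FPKM. Cdkn1a, which encodes the cell cycle inhibitor p21, stood at 73.7, 18.7 and 30.6 FPKM in AT2-PBS and 107, 131 and 137 in Atg5-/- AT2-BLM (log2 fold change 1.80, standard error 0.36, adjusted p = 0.0228). No value of one group fell within the range of the other, and the difference from AT2-BLM (303, 238 and 276 FPKM) was -1.12 (95% interval -1.91 to -0.33) on the log2 scale. The nuclease gene Aen and the pro-apoptotic Bax, named here after their values were seen, gave log2 fold changes of 1.78 (adjusted p = 0.00067) and 1.26 (adjusted p = 0.00786). Mdm2, which encodes the ubiquitin ligase that degrades p53, was not called (log2 fold change 0.25, standard error 0.23, adjusted p = 0.581). The count of members below AT2-BLM was 9 without AT2-BLM replicate 3 and 8 with scaling to Cdh1, and 0 of these passed the adjusted p of limma.

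The region upstream of Cdkn1a holds letters of the kind that p53 is known to bind. The 250 bases before the first listed start of Cdkn1a (RefSeq, GRCm38.p6, chr17:29090729-29090978, plus strand) are printed 5′ to 3′ with the match to the p53 core, CATG and again CATG with 6 bases of any kind between them, in capitals. The window of its other listed start holds no match.
Cdkn1a: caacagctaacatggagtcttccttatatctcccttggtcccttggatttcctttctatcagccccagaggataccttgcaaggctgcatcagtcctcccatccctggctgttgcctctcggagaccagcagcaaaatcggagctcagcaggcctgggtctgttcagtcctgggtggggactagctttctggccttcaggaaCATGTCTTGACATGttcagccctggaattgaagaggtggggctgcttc
The p53 match ends 34 bases before the start. The pair was searched on both strands and was found in 1 of 15 list members with a promoter in the table (6.67%) and in 0.362% of 8284 tested genes that had one. A match is a description of letters and was not tested for binding.

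**Figure D3:**
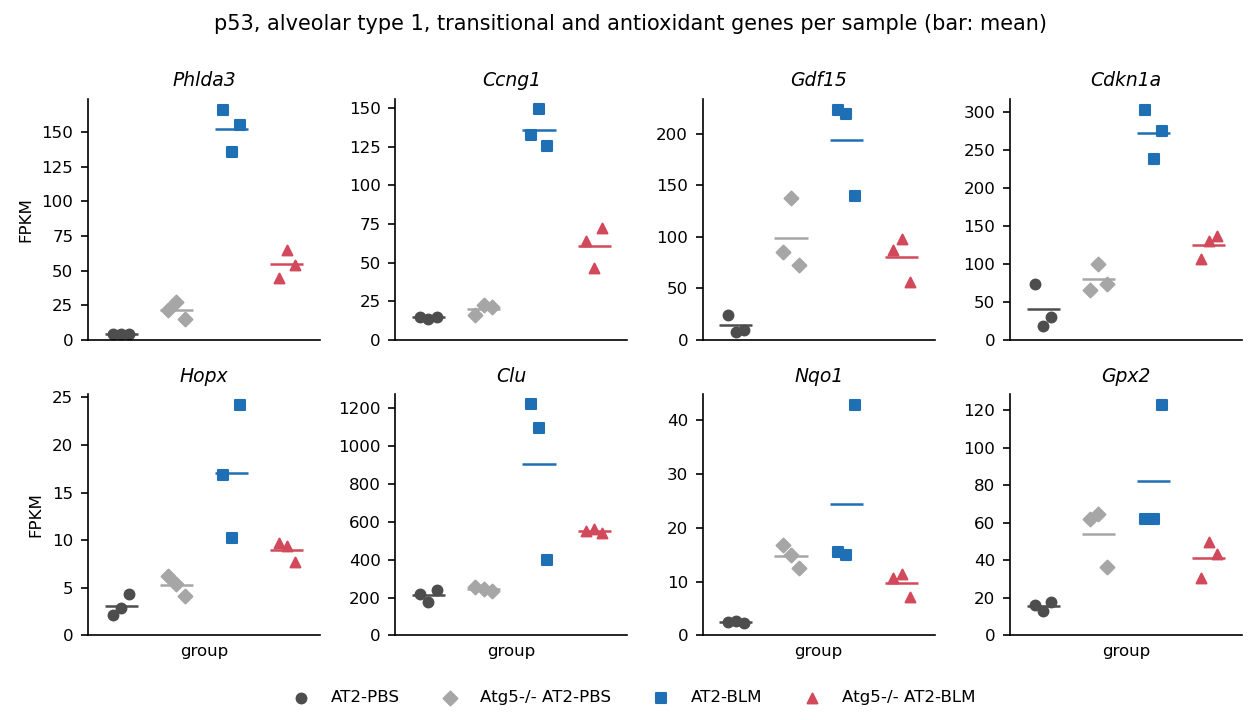
FPKM (y axis, linear from 0) of 8 genes in each library of the 4 groups, with a bar at the group mean (n = 3). In the p53 targets Phlda3, Ccng1 and Cdkn1a, the Atg5-/- AT2-BLM libraries (triangles) lie above every AT2-PBS library (circles) and below every AT2-BLM library (squares).

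Genes of the AT1 cell were partly raised. Of the alveolar type 1 cell list, 7 of 14 tested genes rose and 0 fell (median 0.61), and 3 were lower than in AT2-BLM. This last number was 0 without AT2-BLM replicate 3 or with scaling to Cdh1, 1 without Atg5-/- AT2-BLM replicate 1 or 2, and 7 without AT2-BLM replicate 2. Pdpn, the membrane glycoprotein T1α, stood at 6.57, 4.95 and 1.00 FPKM in AT2-PBS and 19.5, 32.4 and 27.6 in Atg5-/- AT2-BLM (log2 fold change 2.59, standard error 0.46, adjusted p = 0.0146), with 37.9, 31.2 and 62.5 FPKM in AT2-BLM. Hopx, a homeodomain cofactor of AT1 cells, stood at 2.13, 2.83 and 4.33 FPKM in AT2-PBS and 9.73, 9.43 and 7.67 in Atg5-/- AT2-BLM (log2 fold change 1.31, standard error 0.28, adjusted p = 0.0297). Both genes were above AT2-PBS in every Atg5-/- AT2-BLM library. Hopx was in turn below AT2-BLM (16.8, 10.3 and 24.2 FPKM, log2 difference -0.79, 95% interval -1.41 to -0.18), and for Pdpn that difference of -0.67 (95% interval -1.67 to 0.32) did not pass. Igfbp2, a binding protein of insulin-like growth factors, stood at 11.7, 0.749 and 2.00 FPKM in AT2-PBS and 6.25, 17.1 and 10.7 in Atg5-/- AT2-BLM (log2 fold change 1.51, standard error 0.60, adjusted p = 0.177), where AT2-PBS replicate 1 overlapped the injured libraries. Aqp5, the apical water channel, stood at 695, 847 and 831 FPKM in AT2-PBS and 659, 728 and 922 in Atg5-/- AT2-BLM, a log2 difference of -0.05 that was not called. The count of rising genes of the alveolar type 1 cell list was 4 with scaling to Cdh1 or without Atg5-/- AT2-BLM replicate 3.

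Some genes of the transitional state list rose, and the keratin genes Krt8 and Krt18 were not among them. Of the transitional alveolar state list, 9 of 22 genes rose against AT2-PBS (median 0.46), and 15 were lower than in AT2-BLM (median -1.04). Clu, the secreted chaperone clusterin, stood at 219, 177 and 241 FPKM in AT2-PBS and 552, 564 and 540.2 in Atg5-/- AT2-BLM (log2 fold change 1.39, standard error 0.32, adjusted p = 0.0406). Its libraries in each group lay close together and far apart between groups. Cldn4, a claudin of tight junctions, stood at 3.34, 3.45 and 2.78 FPKM in AT2-PBS and 6.43, 21.5 and 14.6 in Atg5-/- AT2-BLM (log2 fold change 1.72, standard error 0.61, adjusted p = 0.134) and at 68.7, 52.9 and 228 FPKM in AT2-BLM, and its difference from AT2-BLM of -2.79 (95% interval -4.12 to -1.46) was the largest fall against AT2-BLM among called genes whose ranges did not overlap. Plaur, the urokinase receptor, stood at 3.16, 1.16 and 0.825 FPKM in AT2-PBS and 3.19, 9.18 and 7.42 in Atg5-/- AT2-BLM (log2 fold change 1.48, standard error 0.52, adjusted p = 0.128). Tm4sf1, a tetraspanin-like membrane protein, rose to 11.1, 9.92 and 9.61 FPKM from 2.83, 7.52 and 1.29 (log2 fold change 1.41, standard error 0.45, adjusted p = 0.0996). The ranges of both did not overlap, by a narrow margin for Plaur. In uninjured Atg5-/- AT2-PBS, Plaur was at 59.8, 52.6 and 55.2 FPKM, above all Atg5-/- AT2-BLM libraries, and Tm4sf1 at 5.77, 18.1 and 14.8. Clu was at 256, 243 and 234 FPKM there and Cldn4 at 7.32, 10.5 and 1.55.

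Krt8, the keratin by which the transitional state is usually recognised and which is named here after its values were seen, stood at 445, 289.9 and 373 FPKM in AT2-PBS and 255, 480.3 and 478 in Atg5-/- AT2-BLM, a log2 difference of 0.09 with standard error 0.34 that was not called. AT2-BLM was at 565, 566 and 1266 FPKM, and Atg5-/- AT2-BLM differed from it by -0.93 (95% interval -1.66 to -0.19). Its partner Krt18 was alike, with -0.02 against AT2-PBS and -0.82 (95% interval -1.60 to -0.04) against AT2-BLM. Replicate 3 of AT2-BLM was the highest library for all of Krt8, Krt18 and Cldn4. Without it, 4 of 22 members of the transitional alveolar state list were lower than AT2-BLM. The number was also 4 with scaling to Cdh1, 5 without Atg5-/- AT2-BLM replicate 1 and 6 without the libraries of near-0 Y-linked genes in AT2-PBS and Atg5-/- AT2-BLM. Against AT2-PBS, the count of 9 became 3 without Atg5-/- AT2-BLM replicate 2 and 5 with scaling to Cdh1 or without AT2-PBS replicate 2 or Atg5-/- AT2-BLM replicate 3.

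Antioxidant genes were raised in part, and some of them stood below injured wild-type cells. Of the glutathione and NRF2 targets list, 11 of 33 rose and 1, the catalase gene Cat, fell, and 10 were lower than in AT2-BLM. The median was 0.43, with 0.85 in AT2-BLM and 0.54 in Atg5-/- AT2-PBS. Nqo1, a quinone reductase and classical target of the factor NRF2, stood at 2.46, 2.70 and 2.26 FPKM in AT2-PBS and 10.8, 11.3 and 7.16 in Atg5-/- AT2-BLM (log2 fold change 1.61, standard error 0.33, adjusted p = 0.0233). AT2-BLM was at 15.5, 14.9 and 42.8 FPKM (log2 difference -1.09, 95% interval -1.81 to -0.38), and Atg5-/- AT2-PBS at 16.9, 14.98 and 12.6 FPKM lay above all Atg5-/- AT2-BLM libraries. Gpx2, an epithelial glutathione peroxidase, stood at 16.2, 13.2 and 18.1 FPKM in AT2-PBS and 30.8, 50 and 43.3 in Atg5-/- AT2-BLM (log2 fold change 1.32, standard error 0.30, adjusted p = 0.0341), with 62.1, 61.9 and 123 FPKM in AT2-BLM and a log2 difference of -0.92 (95% interval -1.57 to -0.28). Gpx3, the secreted form, stood at 7.85, 13.4 and 10.6 FPKM in AT2-PBS and 19.5, 31.3 and 30.2 in Atg5-/- AT2-BLM (log2 fold change 1.27, standard error 0.26, adjusted p = 0.0235) and did not differ detectably from AT2-BLM (0.21, 95% interval -0.36 to 0.77). Sod3, the extracellular superoxide dismutase, rose too (log2 fold change 1.32, standard error 0.38, adjusted p = 0.0743). In each of the 4, every Atg5-/- AT2-BLM library exceeded every AT2-PBS library. In Atg5-/- AT2-PBS, Gpx2 was at 61.9, 64.8 and 36.4 FPKM, Gpx3 at 26.4, 32.7 and 17.6 and Sod3 at 15.8, 19.0 and 8.86. All 4 genes were thus also above AT2-PBS without BLM. The number below AT2-BLM was 4 without AT2-BLM replicate 3 and 3 with scaling to Cdh1, and the number above AT2-PBS was 6 with scaling to Cdh1 or quantile normalization, and 7 without AT2-PBS replicate 2.

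Cell cycle genes rose in the injured Atg5-null cells and were not distinguished from injured wild-type cells. Of the proliferation list, 24 of 29 tested genes rose and 0 fell against AT2-PBS, with a median of 1.09. The median in AT2-BLM was 1.24 and that in Atg5-/- AT2-PBS 0.33. Against AT2-BLM, 0 were higher and 0 lower in limma, and 0 had an unadjusted p under 0.05 (median -0.09). Ube2c, the ubiquitin-conjugating enzyme of the anaphase-promoting complex, stood at 7.15, 7.35 and 5.80 FPKM in AT2-PBS and 16.5, 76.8 and 31.9 in Atg5-/- AT2-BLM (log2 fold change 2.198, standard error 0.42, adjusted p = 0.0204). Cdc20, the activator of that complex, stood at 12.0, 7.82 and 11.3 FPKM in AT2-PBS and 21.9, 79.8 and 34.2 in Atg5-/- AT2-BLM (log2 fold change 1.84, standard error 0.42, adjusted p = 0.0344). Atg5-/- AT2-BLM replicate 2 was the highest library for both, and replicate 1 the lowest of its group but still above all AT2-PBS libraries.

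Plk1, a mitotic kinase, stood at 1.02, 1.99 and 2.35 FPKM in AT2-PBS and 6.65, 12.3 and 8.05 in Atg5-/- AT2-BLM (log2 fold change 1.84, standard error 0.37, adjusted p = 0.0228), and its difference from AT2-BLM was 0.01 (95% interval -0.80 to 0.82). Rrm2, the ribonucleotide reductase subunit that supplies deoxynucleotides, stood at 4.16, 1.38 and 3.38 FPKM in AT2-PBS and 5.23, 20.8 and 13.6 in Atg5-/- AT2-BLM (log2 fold change 1.73, standard error 0.59, adjusted p = 0.121), with -0.16 (95% interval -1.45 to 1.13) against AT2-BLM. For Ube2c and Cdc20 these differences were -0.19 (95% interval -1.11 to 0.73) and 0.11 (95% interval -0.79 to 1.02). These intervals are wide, so equal levels are not shown. Ccnd1, the G1 cyclin D1, outside the naming rule, rose by 1.60 (adjusted p = 0.0219). Mki67 did not pass the filter on low values. Across the alternatives that keep the call rule, the count of rising members of the proliferation list lay between 20 and 25.

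Promoters of this group were searched for 2 short elements. The cell cycle homology region (CHR, TTTGAA) and the CCAAT box (CCAAT) are known to act together in genes expressed at mitosis. The 250 bases upstream of Cdc20 (chr4:118437344-118437593, minus strand) and Ube2c (chr2:164769679-164769928, plus strand) are shown from the RefSeq table (GRCm38.p6), 5′ to 3′, with both elements on either strand in capitals.
Cdc20: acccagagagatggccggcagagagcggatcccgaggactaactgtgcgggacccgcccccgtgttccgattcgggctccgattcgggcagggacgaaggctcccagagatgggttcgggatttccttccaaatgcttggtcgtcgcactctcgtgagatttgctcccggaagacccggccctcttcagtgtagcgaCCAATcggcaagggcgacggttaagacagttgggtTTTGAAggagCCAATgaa
Ube2c: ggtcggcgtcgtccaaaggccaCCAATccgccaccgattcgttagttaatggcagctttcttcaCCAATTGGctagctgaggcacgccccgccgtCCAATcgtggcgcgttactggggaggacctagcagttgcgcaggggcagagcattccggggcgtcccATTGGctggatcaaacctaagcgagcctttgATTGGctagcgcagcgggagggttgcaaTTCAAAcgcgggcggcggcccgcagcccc
Cdc20 holds 1 CHR match that ends 12 bases before the start and 2 CCAAT matches, and Ube2c holds 1 and 6, of which 2 overlap each other. CCAAT was found in 18 of 22 members with a promoter in the table (81.8%), against 40.4% of the 8284 tested genes that had one. For CHR the shares were 31.8% (7 genes) and 12.3%. The list was drawn up from known cell cycle genes, so these shares describe the list and were not tested.

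Acute phase and secreted defence genes had the highest median of the lists. Of the acute phase list, 14 of 17 rose and 0 fell (median 2.67, with 2.71 in AT2-BLM and 3.74 in Atg5-/- AT2-PBS). Saa3, an inducible serum amyloid A, stood at 0.204, 0.791 and 0 FPKM in AT2-PBS and 11.1, 86.0 and 38.8 in Atg5-/- AT2-BLM (log2 fold change 4.75, standard error 0.72, adjusted p = 0.00695). Lcn2, the siderophore-binding lipocalin 2, stood at 493, 396 and 367 FPKM in AT2-PBS and 1787, 4427 and 4326 in Atg5-/- AT2-BLM (log2 fold change 2.96, standard error 0.44, adjusted p = 0.0066). Both were several-fold above all AT2-PBS libraries, and their differences from AT2-BLM were -1.20 (95% interval -2.77 to 0.37) and -0.45 (95% interval -1.41 to 0.50). Lcn2 was also abundant in Atg5-/- AT2-PBS, at 1448, 1037 and 801 FPKM, and Saa3 was at 18.7, 16.4 and 13.98 FPKM there. Orm1 (14.04, 0.600 and 0.0861 FPKM in AT2-PBS and 10.6, 109 and 76.9 in Atg5-/- AT2-BLM) and the fibrinogen chain gene Fgb (17.6, 0.286 and 0 FPKM in AT2-PBS and 7.93, 63.6 and 23.7 in Atg5-/- AT2-BLM) were called too, with overlapping ranges because AT2-PBS replicate 1 held both. Hp, haptoglobin, was not called against AT2-PBS and was the 1 member above AT2-BLM (log2 difference 0.70, 95% interval 0.03 to 1.37).

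Several members of this list are liver genes, and genes of the liver marker list were called with them. Its sums were highest in Atg5-/- AT2-PBS, at 2630, 4135 and 3370 FPKM. They were 1124, 471 and 478 FPKM in AT2-PBS and 575, 1676 and 703 FPKM in Atg5-/- AT2-BLM, which overlap. Of the liver marker list, 8 of 12 genes were called higher. That number was 0 without AT2-PBS replicate 2, AT2-PBS replicate 3 or Atg5-/- AT2-BLM replicate 2, and the part of liver RNA in the acute phase calls was not tested. Saa3 and Lcn2 are not on the liver list, and the part of liver RNA in their rises was likewise not tested. Chemokines rose in smaller number, 5 of 20 (median 0.42). Cxcl17, a mucosal chemokine, stood at 84.1, 38.5 and 54.4 FPKM in AT2-PBS and 128, 210.5 and 186 in Atg5-/- AT2-BLM (log2 fold change 1.59, standard error 0.33, adjusted p = 0.0245). Cxcl5, a neutrophil attractant, stood at 0.483, 0.540 and 0.307 FPKM in AT2-PBS and 13.5, 11.1 and 8.53 in Atg5-/- AT2-BLM (log2 fold change 3.04, standard error 1.07, adjusted p = 0.129). Both were above the AT2-PBS range in every library. Ccl20, which attracts lymphocytes and dendritic cells, stood at 0.0730, 0 and 1.59 FPKM in AT2-PBS and 7.04, 10.7 and 2.71 in Atg5-/- AT2-BLM (log2 fold change 2.32, standard error 0.73, adjusted p = 0.0954). Cxcl3, another neutrophil attractant, stood at 2.70, 1.76 and 3.31 FPKM in AT2-PBS and 4.49, 10.6 and 8.26 in Atg5-/- AT2-BLM (log2 fold change 1.25, standard error 0.54, adjusted p = 0.211), a call lost in 10 of 24 alternatives. These ranges were apart as well, and AT2-BLM replicate 3 was far below the other AT2-BLM libraries for Cxcl5 and Ccl20. The epithelial chemokines and cytokines list had 3 rises with quantile normalization, with median-ratio scaling or without Atg5-/- AT2-BLM replicate 3.

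The largest rises also included the following genes. Slc26a4, the anion exchanger pendrin, stood at 6.29, 6.57 and 6.42 FPKM in AT2-PBS and 55.9, 51.6 and 60.0 in Atg5-/- AT2-BLM (log2 fold change 2.93, standard error 0.43, adjusted p = 0.0066), with 77.7, 81.3 and 42.5 FPKM in AT2-BLM and 18.5, 22.6 and 4.65 FPKM in Atg5-/- AT2-PBS. Its 3 Atg5-/- AT2-BLM libraries lay close together, and above all AT2-PBS libraries. Pigr, the receptor that carries immunoglobulins across epithelia, stood at 3.28, 1.21 and 0.940 FPKM in AT2-PBS and 50.9, 19.3 and 22.1 in Atg5-/- AT2-BLM (log2 fold change 3.46, standard error 0.86, adjusted p = 0.0479). Spp1, the matrix protein osteopontin, stood at 10.2, 2.07 and 1.38 FPKM in AT2-PBS and 12.7, 100.5 and 100.2 in Atg5-/- AT2-BLM (log2 fold change 3.58, standard error 0.78, adjusted p = 0.0298), with replicate 1 of both groups close to each other. Pigr and Spp1 were above AT2-PBS in every library. Nkx2-9, a homeobox factor, stood at 0.243, 0.378 and 0.816 FPKM in AT2-PBS and 56.5, 29.5 and 22.1 in Atg5-/- AT2-BLM (log2 fold change 4.56, standard error 0.35, adjusted p = 9.11e-05). Ly6a, which encodes Sca-1, the surface protein that the sort excluded, stood at 14.8, 16.8 and 7.36 FPKM in AT2-PBS and 984, 515 and 63.1 in Atg5-/- AT2-BLM (log2 fold change 4.59, standard error 0.78, adjusted p = 0.0125). In Atg5-/- AT2-PBS, Nkx2-9 was at 40.4, 34.8 and 35.7 FPKM, Ly6a at 636, 754 and 368 and Spp1 at 74.5, 154 and 52.96, levels like those of the injured libraries, and AT2-PBS stood alone at the low end for all 3 genes.

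Genes induced by interferon, and the antigen presentation genes that interferon also controls, rose. Of the interferon-stimulated list, 13 of 24 were called higher and 0 lower (median 1.27, with 2.28 in Atg5-/- AT2-PBS), and for 22 the Atg5-/- AT2-BLM libraries were all above the AT2-PBS libraries. Isg15, a ubiquitin-like modifier, stood at 0.830, 1.67 and 2.92 FPKM in AT2-PBS and 23.8, 23.4 and 12.0 in Atg5-/- AT2-BLM (log2 fold change 2.90, standard error 0.84, adjusted p = 0.0745). Usp18, the protease that removes it, stood at 2.18, 1.56 and 1.19 FPKM in AT2-PBS and 19.3, 9.85 and 15.3 in Atg5-/- AT2-BLM (log2 fold change 2.55, standard error 0.62, adjusted p = 0.0434). Their ranges were well apart, and AT2-BLM was at 54.5, 26.9 and 16.7 and 33.6, 30.4 and 20.3 FPKM. Bst2, the antiviral protein tetherin, stood at 50.8, 30.7 and 45.5 FPKM in AT2-PBS and 303, 169.5 and 122 in Atg5-/- AT2-BLM (log2 fold change 2.13, standard error 0.68, adjusted p = 0.0988). Oasl2, an oligoadenylate synthetase-like protein, stood at 2.08, 0.904 and 0.146 FPKM in AT2-PBS and 16.1, 4.75 and 7.40 in Atg5-/- AT2-BLM (log2 fold change 2.31, standard error 0.87, adjusted p = 0.156). Against AT2-BLM, 0 of the list was called in limma, and 0 had an unadjusted p under 0.05, while the fitted difference was below 0 for all 24 tested members, with a median of -0.49, beside -0.05 over all genes. Levels in Atg5-/- AT2-PBS were also high but uneven, with 151, 202 and 11.4 FPKM of Isg15, and its 3 libraries are part of the estimate of spread. The count was 22 when the fit held only the 2 groups, 21 without Atg5-/- AT2-PBS replicate 3, 6 without AT2-PBS replicate 2 or 3, and 5 without Atg5-/- AT2-BLM replicate 1. It was 8 with quantile normalization.

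The promoter of Isg15 holds an element known from many interferon-induced genes. Its 250 upstream bases (RefSeq, GRCm38.p6, chr4:156200819-156201068, minus strand) are printed 5′ to 3′, with matches to the core of the interferon-stimulated response element, GAAA and again GAAA with 2 bases of any kind between them, on either strand, in capitals.
Isg15: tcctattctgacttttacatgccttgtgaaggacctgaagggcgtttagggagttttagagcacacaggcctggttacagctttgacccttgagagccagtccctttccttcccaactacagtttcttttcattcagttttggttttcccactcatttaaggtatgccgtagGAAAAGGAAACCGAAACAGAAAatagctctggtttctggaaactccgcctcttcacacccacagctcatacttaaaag
The 3 matches overlap one another, and the nearest ends 56 bases before the start. Of 19 members with a promoter in the table, 10 held the core (52.6%), against 3.24% of 8284 tested genes that had one. The list was drawn up from known interferon targets, so this share describes the list and was not tested.

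Of the MHC class I and immunoproteasome list, 11 of 16 rose and 0 fell (median 0.93, with 1.05 in AT2-BLM and 0.86 in Atg5-/- AT2-PBS). B2m, the light chain of class I molecules, stood at 1074, 400.2 and 392 FPKM in AT2-PBS and 3446, 1669.5 and 1549 in Atg5-/- AT2-BLM (log2 fold change 1.91, standard error 0.54, adjusted p = 0.0714). H2-Q4, a nonclassical class I gene, stood at 4.805, 1.61 and 1.55 FPKM in AT2-PBS and 5.12, 13.2 and 11.9 in Atg5-/- AT2-BLM (log2 fold change 1.62, standard error 0.39, adjusted p = 0.0422). Psmb9, a catalytic subunit of the immunoproteasome, stood at 24.5, 15 and 15.6 FPKM in AT2-PBS and 58.9, 65.4 and 33.7 in Atg5-/- AT2-BLM (log2 fold change 1.45, standard error 0.45, adjusted p = 0.0954). H2-Q7, another nonclassical class I gene, stood at 14.96, 3.38 and 1.84 FPKM in AT2-PBS and 71.1, 32.0 and 27.4 in Atg5-/- AT2-BLM (log2 fold change 2.80, standard error 0.74, adjusted p = 0.0572). All 4 were above every AT2-PBS library. In Atg5-/- AT2-PBS, B2m was at 3219, 2457 and 1161 FPKM, and H2-Q4 at 8.63, 13.0 and 6.73. Psmb9 was there at 78.7, 91.4 and 26.5 FPKM, and H2-Q7 at 34.0, 28.4 and 8.36. B2m, H2-Q4 and Psmb9 thus lay above every AT2-PBS library without BLM as well. H2-Q genes are near-identical copies, so the division of reads between them is uncertain. Against AT2-BLM 0 members were called (1 at an unadjusted p under 0.05 in limma), with differences such as -0.15 (95% interval -1.33 to 1.03) for B2m. For class II, 3 of 11 rose (median 0.12), beside 12.9% of all genes. H2-DMb2, which serves peptide loading, stood at 4.28, 1.56 and 1.71 FPKM in AT2-PBS and 7.04, 8.87 and 5.73 in Atg5-/- AT2-BLM (log2 fold change 1.29, standard error 0.45, adjusted p = 0.131). H2-Oa, a regulator of that step, was listed at 0 in all AT2-PBS libraries, with 0.597, 0.905 and 0.942 FPKM in Atg5-/- AT2-BLM. It passed the filter only through Atg5-/- AT2-PBS (1.61, 1.06 and 2.79 FPKM). No compared library reached 1 FPKM of H2-Oa, so this rise lies below the filter.

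Immediate early genes, which cells switch on within minutes of a stimulus, were the group with the most falls. Of the AP-1 and immediate early list, 10 of 23 fell and 2 rose (median -1.15, with -0.77 in AT2-BLM). Atf3, a stress-induced transcription factor, stood at 575, 62.0 and 125 FPKM in AT2-PBS and 24.9, 17.8 and 8.86 in Atg5-/- AT2-BLM (log2 fold change -3.30, standard error 0.77, adjusted p = 0.0391). Egr1, a zinc finger factor, stood at 587, 102 and 223 FPKM in AT2-PBS and 58.4, 17.7 and 17.7 in Atg5-/- AT2-BLM (log2 fold change -3.12, standard error 0.77, adjusted p = 0.0479). AT2-PBS replicate 1 was by far the highest library for both, and the groups still did not overlap among the other libraries. Fosb, a partner in the AP-1 dimer, stood at 61.0, 8.93 and 7.85 FPKM in AT2-PBS and 2.77, 2.59 and 2.63 in Atg5-/- AT2-BLM (log2 fold change -2.26, standard error 0.63, adjusted p = 0.0681) without overlap. Jund, another partner, stood at 46.9, 103 and 429 FPKM in AT2-PBS and 8.64, 48.9 and 8.48 in Atg5-/- AT2-BLM (log2 fold change -2.96, standard error 0.81, adjusted p = 0.0628), where AT2-PBS replicate 3 was highest and the ranges overlapped. Fos, outside the naming rule, was not called (log2 fold change -1.19, standard error 0.57, adjusted p = 0.255). Socs3, a feedback inhibitor of cytokine signalling that is also on the list, rose by 1.56 (adjusted p = 0.0132).

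Myc, the growth-promoting transcription factor, stood at 25.0, 8.81 and 10.4 FPKM in AT2-PBS and 3.34, 1.37 and 3.43 in Atg5-/- AT2-BLM (log2 fold change -2.00, standard error 0.45, adjusted p = 0.0344). AT2-BLM was at 6.74, 5.46 and 19.5 FPKM and Atg5-/- AT2-PBS at 14.95, 16.4 and 11.9 FPKM, so the injured Atg5-null cells were the lowest of the 4 groups, with a log2 difference of -1.50 (95% interval -2.48 to -0.52) from AT2-BLM. Klf6, a zinc finger factor, stood at 95.9, 27.9 and 24.8 FPKM in AT2-PBS and 10.5, 7.77 and 10.2 in Atg5-/- AT2-BLM (log2 fold change -2.00, standard error 0.48, adjusted p = 0.042). Arc, an immediate early gene best known from neurons, stood at 4.84, 7.11 and 2.41 FPKM in AT2-PBS and 0.160, 0.504 and 0.489 in Atg5-/- AT2-BLM (log2 fold change -1.99, standard error 0.44, adjusted p = 0.031). Hspa1a, the inducible heat shock protein 70, stood at 98.2, 17.7 and 50.8 FPKM in AT2-PBS and 4.29, 4.45 and 5.60 in Atg5-/- AT2-BLM (log2 fold change -2.99, standard error 0.50, adjusted p = 0.0115) and was also below AT2-BLM (-1.11, 95% interval -2.20 to -0.03). These 4 had ranges that did not overlap. Leaving out AT2-PBS replicate 2 raised the count of falling members of the AP-1 and immediate early list to 16, and 9 fell without AT2-PBS replicate 1.

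Stress genes of the endoplasmic reticulum were lower as well. Of the ER protein processing and unfolded protein response list, 6 of 29 fell and 0 rose (median -0.18). Ppp1r15a, which restores translation after stress, stood at 121, 54.4 and 71.1 FPKM in AT2-PBS and 39.6, 19.5 and 17.0 in Atg5-/- AT2-BLM (log2 fold change -1.67, standard error 0.35, adjusted p = 0.0245). Atf4, the factor translated during that stress, stood at 131, 76.3 and 91.6 FPKM in AT2-PBS and 57.9, 54.8 and 41.4 in Atg5-/- AT2-BLM (log2 fold change -0.92, standard error 0.25, adjusted p = 0.065). Dnajb9, a chaperone of the endoplasmic reticulum, stood at 159, 59.9 and 68.1 FPKM in AT2-PBS and 41.7, 30.6 and 40.2 in Atg5-/- AT2-BLM (log2 fold change -1.20, standard error 0.32, adjusted p = 0.0615). Eif2ak3, which encodes the sensor kinase PERK, stood at 2.95, 2.34 and 4.31 FPKM in AT2-PBS and 0.909, 2.15 and 1.07 in Atg5-/- AT2-BLM (log2 fold change -0.83, standard error 0.30, adjusted p = 0.143). The 4 genes were below AT2-PBS in every Atg5-/- AT2-BLM library, and 1 of 29 members was called against AT2-BLM.

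Among the remaining large falls, Pon1, a serum lactonase, stood at 39.6, 84.9 and 46.0 FPKM in AT2-PBS and 10.7, 3.22 and 2.07 in Atg5-/- AT2-BLM (log2 fold change -3.36, standard error 0.46, adjusted p = 0.0046), with 3.18, 1.97 and 1.16 FPKM in AT2-BLM. Igfbp6, an inhibitor of insulin-like growth factor II, stood at 134, 159.7 and 170.2 FPKM in AT2-PBS and 55.4, 31.3 and 17.3 in Atg5-/- AT2-BLM (log2 fold change -2.27, standard error 0.30, adjusted p = 0.0046) and differed from AT2-BLM by -0.02 (95% interval -0.68 to 0.65). In Atg5-/- AT2-PBS, Igfbp6 was at 134, 144 and 131 FPKM, beside the AT2-PBS level. Bcl2a1a, a survival factor of the Bcl2 family with near-identical copies that make its counting uncertain, stood at 12.2, 16.4 and 15.8 FPKM in AT2-PBS and 1.396, 3.33 and 4.82 in Atg5-/- AT2-BLM (log2 fold change -2.00, standard error 0.29, adjusted p = 0.0066), with 1.65, 2.35 and 1.30 FPKM in AT2-BLM. Cst8, a cystatin-like protein, stood at 80.6, 84.2 and 67.8 FPKM in AT2-PBS and 18.1, 23.7 and 7.58 in Atg5-/- AT2-BLM (log2 fold change -2.29, standard error 0.30, adjusted p = 0.00439), and its fall was smaller than in AT2-BLM (5.66, 4.24 and 6.06 FPKM, log2 difference 1.35, 95% interval 0.69 to 2.01). Smoc2, a matricellular protein, stood at 11.9, 17.5 and 19.3 FPKM in AT2-PBS and 9.41, 2.09 and 1.19 in Atg5-/- AT2-BLM (log2 fold change -2.03, standard error 0.45, adjusted p = 0.031). All 5 genes had ranges apart from AT2-PBS.

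**Figure D4:**
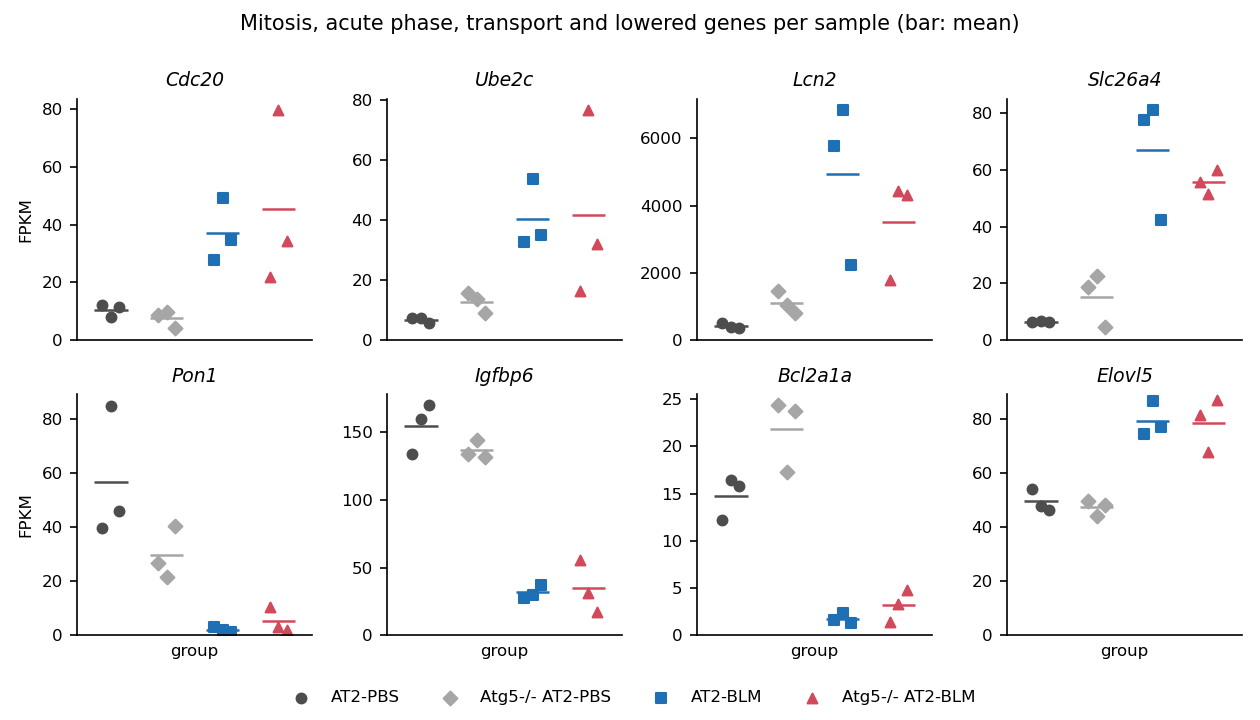
FPKM (y axis, linear from 0) of 8 genes in each library of the 4 groups, with a bar at the group mean (n = 3). Atg5-/- AT2-BLM (triangles) overlaps AT2-BLM (squares) in all 8 panels and does not overlap AT2-PBS (circles) in any of them.

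Genes of glucose use were called in both directions against uninjured cells. Of the glucose uptake, glycolysis and lactate list, 5 of 23 rose and 2 fell, beside 12.9% and 4.47% of all genes (median 0.25), and 3 were lower than in AT2-BLM. The rises in the glucose uptake, glycolysis and lactate list numbered 2 with scaling to Cdh1 or without AT2-PBS replicate 2, and the genes below AT2-BLM numbered 0 with scaling to Cdh1 and without AT2-BLM replicate 3, Atg5-/- AT2-BLM replicate 1 or the libraries of near-0 Y-linked genes. Eno1, the glycolytic enolase, stood at 57.1, 26.9 and 30.7 FPKM in AT2-PBS and 36.1, 105 and 109 in Atg5-/- AT2-BLM (log2 fold change 1.02, standard error 0.44, adjusted p = 0.209). Replicate 1 overlapped AT2-PBS, and the call was lost in 11 of 24 alternatives, including all 3 scalings and the fit of only the compared groups. AT2-BLM was at 122, 144 and 301 FPKM, higher than Atg5-/- AT2-BLM in every library (log2 difference -1.21, 95% interval -2.18 to -0.25). Uninjured Atg5-/- AT2-PBS was at 101, 107 and 72.8 FPKM of Eno1, above all AT2-PBS libraries without BLM. Pgam1, phosphoglycerate mutase, stood at 25.4, 30.1 and 28.7 FPKM in AT2-PBS and 31.7, 37.0 and 42.9 in Atg5-/- AT2-BLM and missed the call (log2 fold change 0.39, standard error 0.18, adjusted p = 0.241), although its ranges did not overlap, and it was below AT2-BLM (47.7, 45.7 and 71.8 FPKM, -0.53, 95% interval -0.93 to -0.14). Aldoa, an aldolase, stood at 223, 213 and 227 FPKM in AT2-PBS and 257, 247 and 288 in Atg5-/- AT2-BLM (log2 fold change 0.25, standard error 0.17, adjusted p = 0.427) and was not called. Slc2a1, the glucose transporter Glut1, stood at 20.1, 13.3 and 14.1 FPKM in AT2-PBS and 17.9, 15.1 and 18.5 in Atg5-/- AT2-BLM (log2 fold change 0.13, standard error 0.25, adjusted p = 0.81) and was not called either.

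Hexokinase Hk1, which phosphorylates glucose on entry, rose, with 10.3, 9.46 and 7.22 FPKM in AT2-PBS and 15.4, 11.8 and 17.4 in Atg5-/- AT2-BLM (log2 fold change 0.66, standard error 0.21, adjusted p = 0.0988). Pgam2, the muscle form of phosphoglycerate mutase, rose at low levels of 1.27, 0.780 and 0.656 FPKM in AT2-PBS and 2.68, 9.99 and 2.22 in Atg5-/- AT2-BLM (log2 fold change 1.43, standard error 0.46, adjusted p = 0.1). Pdk1, a kinase that restrains pyruvate dehydrogenase, fell, with 5.79, 10.8 and 4.64 FPKM in AT2-PBS and 5.38, 1.71 and 3.90 in Atg5-/- AT2-BLM (log2 fold change -0.80, standard error 0.33, adjusted p = 0.184) and ranges that overlapped. Gapdh, listed at about 1 FPKM or less in every library although all cells use it, was not among the tested genes. In the pentose phosphate pathway list, 3 of 12 rose and 0 fell (median 0.33). Taldo1, transaldolase, stood at 157, 142 and 183 FPKM in AT2-PBS and 213, 311 and 284 in Atg5-/- AT2-BLM (log2 fold change 0.73, standard error 0.22, adjusted p = 0.0817). Pgm2, a phosphoglucomutase, stood at 88.9, 95.9 and 87.4 FPKM in AT2-PBS and 129.5, 131 and 171 in Atg5-/- AT2-BLM (log2 fold change 0.65, standard error 0.15, adjusted p = 0.0412). Dera, an aldolase of deoxyribose phosphate, stood at 12.9, 13.7 and 15.1 FPKM in AT2-PBS and 19.4, 19.2 and 24.5 in Atg5-/- AT2-BLM (log2 fold change 0.56, standard error 0.20, adjusted p = 0.131). Their groups did not overlap. The pentose phosphate pathway list had 1 rise with scaling to Cdh1 and 5 without Atg5-/- AT2-BLM replicate 1. G6pdx, the enzyme that commits glucose 6-phosphate to the pathway, stood at 33.0, 29.3 and 30.2 FPKM in AT2-PBS and 45.2, 30.0 and 51.3 in Atg5-/- AT2-BLM (log2 fold change 0.41, standard error 0.21, adjusted p = 0.299) and was lower than in AT2-BLM (56.3, 54.9 and 89.4 FPKM, -0.65, 95% interval -1.12 to -0.18).

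Genes of fatty acid synthesis showed no common direction against AT2-PBS. Of the fatty acid synthesis list, 3 of 22 rose, 1 fell and the median was -0.01, while 3 were higher than in AT2-BLM. Acly, which makes cytosolic acetyl-CoA from citrate, stood at 233, 249.7 and 162 FPKM in AT2-PBS and 219, 97.1 and 151 in Atg5-/- AT2-BLM (log2 fold change -0.51, standard error 0.27, adjusted p = 0.3), with replicate 1 within the AT2-PBS range and the others below it. Acaca, acetyl-CoA carboxylase, stood at 7.48, 7.91 and 4.43 FPKM in AT2-PBS and 6.12, 5.43 and 3.38 in Atg5-/- AT2-BLM (log2 fold change -0.34, standard error 0.25, adjusted p = 0.465). It was above AT2-BLM (2.87, 2.39 and 2.01 FPKM, 0.78, 95% interval 0.24 to 1.33). Fasn, fatty acid synthase, stood at 134, 153 and 102 FPKM in AT2-PBS and 94.3, 152 and 167 in Atg5-/- AT2-BLM (log2 fold change 0.06, standard error 0.22, adjusted p = 0.903) and differed from AT2-BLM (90.2, 82.8 and 99.5 FPKM) by 0.56 (95% interval 0.07 to 1.05). Its difference from AT2-PBS was -0.07 with quantile normalization and likewise below 0 with both other scalings. Fads1, a fatty acid desaturase, stood at 85.8, 82.9 and 80.0 FPKM in AT2-PBS and 103, 46.1 and 53.3 in Atg5-/- AT2-BLM, a log2 difference of -0.38. Fads2, its neighbour in the same pathway, stood at 46.5, 44.8 and 43.1 FPKM in AT2-PBS and 56.1, 28.3 and 30.1 in Atg5-/- AT2-BLM, a log2 difference of -0.29. Neither was called. Without Atg5-/- AT2-BLM replicate 1, which was the highest of its group for Acly, Fads1 and Fads2, the count of the fatty acid synthesis list became 2 higher and 7 lower.

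Elovl5, an elongase of polyunsaturated fatty acids, stood at 54.1, 47.9 and 46.2 FPKM in AT2-PBS and 81.2, 67.6 and 86.8 in Atg5-/- AT2-BLM (log2 fold change 0.65, standard error 0.13, adjusted p = 0.0243), with a log2 difference from AT2-BLM of -0.02, 95% interval -0.31 to 0.28. Me1, a malic enzyme that yields NADPH, stood at 67.9, 38.0 and 61.6 FPKM in AT2-PBS and 92.7, 84.0 and 120.3 in Atg5-/- AT2-BLM (log2 fold change 0.84, standard error 0.23, adjusted p = 0.0624). Slc25a1, the mitochondrial citrate carrier, stood at 83.9, 80.7 and 83.5 FPKM in AT2-PBS and 124, 97.5 and 133 in Atg5-/- AT2-BLM (log2 fold change 0.50, standard error 0.18, adjusted p = 0.137), a call lost in 9 of 24 alternatives. Thrsp, a regulator of lipogenesis, fell, with 15.01, 11.03 and 30.3 FPKM in AT2-PBS and 4.72, 10.3 and 2.73 in Atg5-/- AT2-BLM (log2 fold change -1.55, standard error 0.46, adjusted p = 0.0815). No library of these 4 genes fell within the other group's range. In cholesterol synthesis 1 of 23 genes fell. It was Insig1, which retains the sterol sensor in the endoplasmic reticulum, at 93.4, 69.2 and 47.1 FPKM in AT2-PBS and 60.8, 34.8 and 28.5 in Atg5-/- AT2-BLM (log2 fold change -0.76, standard error 0.31, adjusted p = 0.177) with overlap. In fatty acid oxidation 1 of 19 rose. It was Cpt2, the inner membrane carnitine transferase, at 11.3, 5.35 and 7.43 FPKM in AT2-PBS and 20.0, 16.2 and 19.2 in Atg5-/- AT2-BLM (log2 fold change 1.16, standard error 0.21, adjusted p = 0.0168) without overlap.

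Mitochondrial genes were mostly not called. Of the TCA cycle list 3 of 25 rose and 0 fell (median 0.20). Fh1, fumarase, stood at 54.8, 37.7 and 42.1 FPKM in AT2-PBS and 66.1, 68.0 and 88.7 in Atg5-/- AT2-BLM (log2 fold change 0.72, standard error 0.18, adjusted p = 0.0514). Pcx, pyruvate carboxylase, stood at 35.6, 31.5 and 24.8 FPKM in AT2-PBS and 34.8, 50.5 and 113 in Atg5-/- AT2-BLM (log2 fold change 0.92, standard error 0.36, adjusted p = 0.163). Dlst, a subunit of the oxoglutarate dehydrogenase complex, stood at 17.7, 17.0 and 14.8 FPKM in AT2-PBS and 18.9, 22.8 and 30.8 in Atg5-/- AT2-BLM (log2 fold change 0.50, standard error 0.20, adjusted p = 0.181). The ranges of Pcx overlapped and those of Fh1 and Dlst did not. The TCA cycle list had 1 rise with median-ratio scaling, with scaling to Cdh1, or without AT2-PBS replicate 3 or Atg5-/- AT2-BLM replicate 3. Of the respiratory chain list 2 of 33 rose (median 0.22). Cox5b, a subunit of cytochrome c oxidase, stood at 180.4, 151 and 199 FPKM in AT2-PBS and 195, 389.9 and 260.3 in Atg5-/- AT2-BLM (log2 fold change 0.62, standard error 0.23, adjusted p = 0.145). Uqcrc1, a core protein of complex III, stood at 121, 138 and 129 FPKM in AT2-PBS and 159, 191 and 196 in Atg5-/- AT2-BLM (log2 fold change 0.49, standard error 0.16, adjusted p = 0.109). Cox5b overlapped through Atg5-/- AT2-BLM replicate 1, the call of Uqcrc1 was lost in 9 of 24 alternatives, and neither share stood above the 12.9% of all genes that were called higher.

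**Figure D5:**
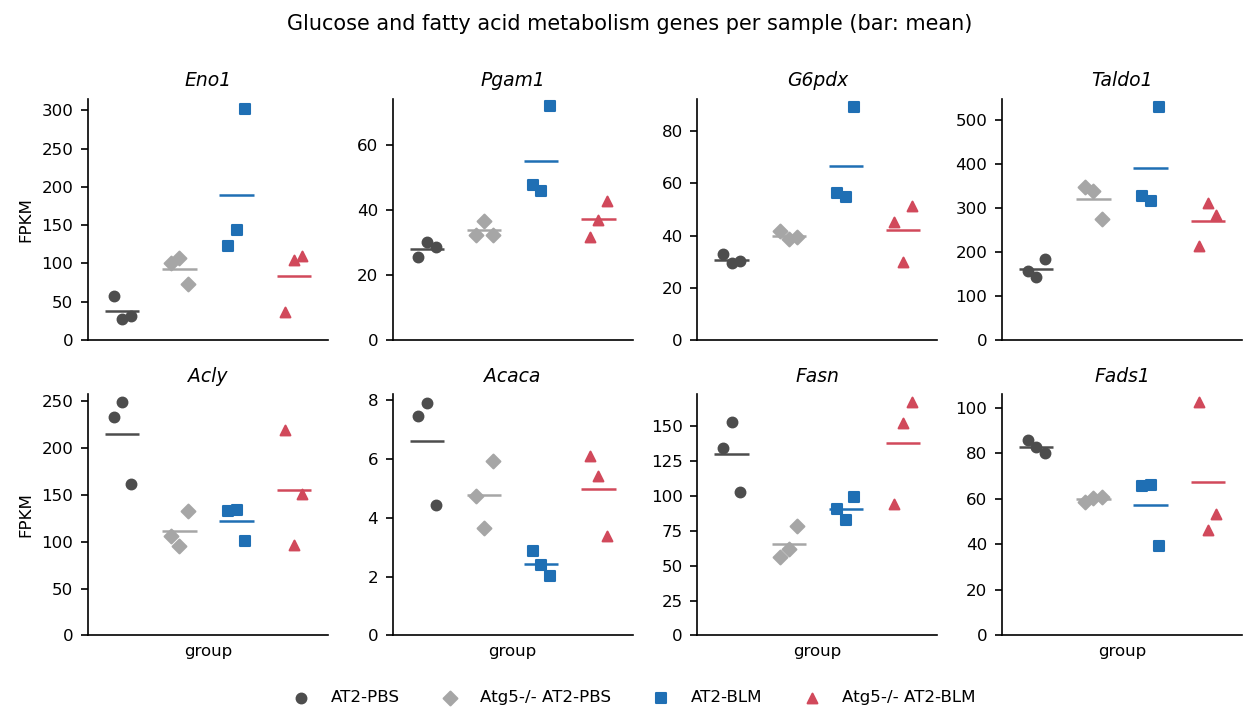
FPKM (y axis, linear from 0) of 4 genes of glucose use and 4 of fatty acid synthesis in each library of the 4 groups, with a bar at the group mean (n = 3). For Eno1, Pgam1, G6pdx and Taldo1 every Atg5-/- AT2-BLM library (triangles) lies below every AT2-BLM library (squares), and for Acaca every one lies above.

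Surfactant genes were called at about the share of all genes, and several alveolar transcription factors fell. Of the surfactant and lamellar body list, 2 of 16 rose, 0 fell and the median was 0.0031 (limma, 3 with p under 0.05 before adjustment). Sftpd, the collectin surfactant protein D, stood at 4939, 5250.3 and 6323 FPKM in AT2-PBS and 6854, 9270.2 and 8461 in Atg5-/- AT2-BLM (log2 fold change 0.57, standard error 0.26, adjusted p = 0.232). Sftpb, the surfactant protein that spreads lipid films, stood at 1777, 11572 and 2589.5 FPKM in AT2-PBS and 9157, 9580.1 and 11606 in Atg5-/- AT2-BLM (log2 fold change 1.42, standard error 0.56, adjusted p = 0.172). Its AT2-PBS libraries were uneven, and replicate 2 overlapped the injured cells. The call of Sftpd was lost in 17 of 24 alternatives and that of Sftpb in 9, and the surfactant and lamellar body list had 0 rises without the filter, with median-ratio scaling, with scaling to Cdh1, when the fit held only the 2 groups, and without AT2-PBS replicate 1, Atg5-/- AT2-BLM replicate 3 or the libraries of near-0 Y-linked genes. Of the alveolar epithelial transcription factors list, 2 of 15 rose and 5 fell, beside 12.9% and 4.47% of all genes (median -0.10). Cebpa, a factor of AT2 maturation, stood at 46.2, 126 and 241 FPKM in AT2-PBS and 18.4, 85.8 and 33.0 in Atg5-/- AT2-BLM (log2 fold change -1.56, standard error 0.69, adjusted p = 0.22). Sox4, a factor of progenitor cells, stood at 7.17, 12.7 and 51.9 FPKM in AT2-PBS and 3.14, 9.09 and 3.51 in Atg5-/- AT2-BLM (log2 fold change -1.66, standard error 0.58, adjusted p = 0.129). Gata6, a factor of lung endoderm, stood at 6.18, 11.9 and 9.87 FPKM in AT2-PBS and 2.50, 7.02 and 3.87 in Atg5-/- AT2-BLM (log2 fold change -0.96, standard error 0.41, adjusted p = 0.209). All 3 fell with overlapping ranges, and AT2-PBS replicate 1 was the lowest of its group in each. The falls in the alveolar epithelial transcription factors list numbered 2 without AT2-PBS replicate 3, and 3 without the filter or without AT2-PBS replicate 2 or Atg5-/- AT2-BLM replicate 1 or 3. The call of Cebpa was lost in 11 of 24 alternatives and that of Gata6 in 9.

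Ion transport and junction genes moved singly. Scnn1g, a subunit of the epithelial sodium channel, rose, with 3.42, 4.34 and 3.75 FPKM in AT2-PBS and 8.22, 6.66 and 15.1 in Atg5-/- AT2-BLM (log2 fold change 1.11, standard error 0.41, adjusted p = 0.147). Scnn1b, another subunit, rose with 9.05, 9.24 and 5.50 FPKM in AT2-PBS and 16.7, 13.7 and 31.0 in Atg5-/- AT2-BLM (log2 fold change 1.21, standard error 0.41, adjusted p = 0.116). Sgk1, the kinase that activates this channel, fell, with 24.1, 6.32 and 9.74 FPKM in AT2-PBS and 2.08, 5.35 and 7.44 in Atg5-/- AT2-BLM (log2 fold change -1.19, standard error 0.54, adjusted p = 0.233). Within the alveolar fluid transport list these were the 2 rises and the 1 fall among 12 genes (median 0.24). Of the tight junction and epithelial adhesion list, 3 of 23 rose and 1 fell. Beside Cldn4, Cgn, a scaffold of tight junctions, rose with 12.9, 10.2 and 7.87 FPKM in AT2-PBS and 21.1, 15.2 and 16.6 in Atg5-/- AT2-BLM (log2 fold change 0.73, standard error 0.22, adjusted p = 0.084). Tjp3, a related scaffold, rose with 16.1, 13.1 and 19.1 FPKM in AT2-PBS and 28.6, 24.9 and 26.7 in Atg5-/- AT2-BLM (log2 fold change 0.71, standard error 0.22, adjusted p = 0.0881). Pard3, a polarity gene, fell with 5.36, 8.02 and 6.67 FPKM in AT2-PBS and 3.47, 3.90 and 3.58 in Atg5-/- AT2-BLM (log2 fold change -0.71, standard error 0.24, adjusted p = 0.12). Among these genes only Sgk1 had ranges that overlapped, and its call was lost in 14 of 24 alternatives, with a log2 fold change from -1.58 to -0.28. The shares called higher in the junction list and in the surfactant list were close to the 12.9% of all genes.

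Single components of TGF-beta and Wnt signalling were called. For TGF-beta and integrin activation, 2 of 16 rose and 1 fell (median 0.04), close to the 12.9% and 4.47% of all genes. Itgb6, the integrin subunit that activates latent TGF-beta, stood at 3.10, 3.59 and 3.75 FPKM in AT2-PBS and 6.46, 6.70 and 6.06 in Atg5-/- AT2-BLM (log2 fold change 0.73, standard error 0.23, adjusted p = 0.0954), below AT2-BLM (8.98, 9.20 and 17.8 FPKM, -0.75, 95% interval -1.24 to -0.25). Tgfbr2, a TGF-beta receptor, stood at 15.7, 17.9 and 12.5 FPKM in AT2-PBS and 22.7, 19.7 and 27.9 in Atg5-/- AT2-BLM (log2 fold change 0.58, standard error 0.26, adjusted p = 0.216). Tgfbi, a matrix protein induced by TGF-beta, fell, with 29.5, 26.4 and 12.8 FPKM in AT2-PBS and 9.39, 13.2 and 14.2 in Atg5-/- AT2-BLM (log2 fold change -0.79, standard error 0.29, adjusted p = 0.149). Of the Wnt components list, 3 of 24 fell, 0 rose and 4 were higher than in AT2-BLM. Over all genes, 4.47% fell and 2.04% were higher than in AT2-BLM. The ligand Wnt3a stood at 5.197, 5.62 and 3.93 FPKM in AT2-PBS and 3.69, 1.46 and 1.45 in Atg5-/- AT2-BLM (log2 fold change -0.95, standard error 0.27, adjusted p = 0.0724). Fzd7, a receptor, stood at 3.07, 3.01 and 6.25 FPKM in AT2-PBS and 1.15, 2.71 and 0.548 in Atg5-/- AT2-BLM (log2 fold change -1.09, standard error 0.30, adjusted p = 0.068). Both were below AT2-PBS in every library. Znrf3, a ligase that removes Wnt receptors, stood at 5.21, 4.47 and 3.58 FPKM in AT2-PBS and 3.84, 2.46 and 2.16 in Atg5-/- AT2-BLM (log2 fold change -0.52, standard error 0.23, adjusted p = 0.225), below AT2-PBS with overlap and above AT2-BLM (0.59, 95% interval 0.08 to 1.09). The call against AT2-PBS was lost in 13 of 24 alternatives for Znrf3 and in 12 for Tgfbr2. The number of the Wnt components list above AT2-BLM was 2 without Atg5-/- AT2-BLM replicate 1 and also without AT2-BLM replicate 2.

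Among the autophagy genes themselves, 1 was called. Of the autophagy machinery and cargo receptors list, 0 of 41 rose and 1 fell (median 0.06, limma, 3 at an unadjusted p under 0.05). The fall was Bnip3l, a receptor for mitochondria, at 33.2, 36.3 and 37.5 FPKM in AT2-PBS and 28.1, 22.8 and 22.2 in Atg5-/- AT2-BLM (log2 fold change -0.54, standard error 0.14, adjusted p = 0.0561), which did not overlap. Sqstm1, which encodes the cargo receptor p62 and is named here after its values were seen, stood at 500.3, 223 and 303 FPKM in AT2-PBS and 385, 355 and 398 in Atg5-/- AT2-BLM (log2 fold change 0.23, standard error 0.26, adjusted p = 0.658) and was the member called below AT2-BLM (-0.59, 95% interval -1.15 to -0.03). The lysosome list rose in part, 12 of 31 with a median of 0.35, beside 12.9% called higher and a median of 0.11 over all genes. Psap, the precursor of the saposins, stood at 25.8, 17.1 and 15.7 FPKM in AT2-PBS and 28.7, 39.6 and 57.6 in Atg5-/- AT2-BLM (log2 fold change 1.04, standard error 0.26, adjusted p = 0.0468). Ctss, cathepsin S, stood at 12.7, 1.73 and 5.78 FPKM in AT2-PBS and 14.5, 109 and 95.2 in Atg5-/- AT2-BLM (log2 fold change 3.11, standard error 0.70, adjusted p = 0.0346). Cd68, a lysosomal membrane glycoprotein, stood at 11.04, 5.26 and 9.12 FPKM in AT2-PBS and 16.2, 31.7 and 34.3 in Atg5-/- AT2-BLM (log2 fold change 1.57, standard error 0.35, adjusted p = 0.0343). Lipa, the lysosomal acid lipase, stood at 1.53, 0.277 and 0.280 FPKM in AT2-PBS and 0.866, 4.54 and 5.29 in Atg5-/- AT2-BLM (log2 fold change 1.32, standard error 0.41, adjusted p = 0.0936). Only Lipa overlapped between the groups. In uninjured Atg5-/- AT2-PBS, Psap, Ctss, Cd68 and Lipa all lay above every Atg5-/- AT2-BLM library. Ctss was there at 243, 287 and 263 FPKM and Cd68 at 119, 109 and 101. Psap was at 102, 124 and 99.3 FPKM and Lipa at 21.4, 16.7 and 15.7. The lysosome count was 5 with median-ratio scaling, with scaling to Cdh1 or without Atg5-/- AT2-BLM replicate 3.

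Ctss, Cd68 and Lipa are also expressed in macrophages, and leukocyte markers moved with them. Of the macrophage list 13 of 19 were called higher and 0 lower, and of the pan-leukocyte and lymphocyte list 8 of 10 (5 with quantile normalization or without AT2-PBS replicate 2). The latter summed to 44.0, 25.4 and 30.7 FPKM in AT2-PBS, 47.8, 86.4 and 80.9 FPKM in Atg5-/- AT2-BLM and 282, 264 and 275 FPKM in Atg5-/- AT2-PBS, and no library of the compared groups overlapped. The macrophage sums, of which Lyz1 (also a gene of AT2 cells) made up the largest share, were 2535, 5186 and 3893 and 3573, 2346 and 1068 FPKM. C1qa, C1qb and C1qc, the chains of complement C1q and products of macrophages, were among the 12 largest rises. C1qb stood at 6.87, 0.441 and 1.01 FPKM in AT2-PBS and 6.96, 57.1 and 33.7 in Atg5-/- AT2-BLM (log2 fold change 3.15, standard error 0.71, adjusted p = 0.0346). C1qa stood at 5.96, 0.190 and 1.19 FPKM in AT2-PBS and 9.74, 35.5 and 26.3 in Atg5-/- AT2-BLM (log2 fold change 3.07, standard error 0.61, adjusted p = 0.0224). C1qc stood at 7.12, 0.164 and 0.862 FPKM in AT2-PBS and 8.16, 31.9 and 32.9 in Atg5-/- AT2-BLM (log2 fold change 3.06, standard error 0.66, adjusted p = 0.0298). In each, replicate 1 was the highest AT2-PBS library and the lowest injured library. Uninjured Atg5-/- AT2-PBS was at 55.4, 87.6 and 57.5 FPKM for C1qb, 44.3, 63.3 and 52.3 for C1qa and 51.6, 72.1 and 40.6 for C1qc. The part of leukocyte RNA in the lysosome, class II and interferon counts was not tested, and fewer cells of a type cannot be told apart from less RNA per cell.

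Of the other marker lists, neutrophil and monocyte genes summed to 152, 43.0 and 88.7 FPKM in AT2-PBS and 102, 364 and 585 in Atg5-/- AT2-BLM, with 6 of 9 called higher and sums that overlapped. The neutrophil and monocyte number was 3 with scaling to Cdh1 or without AT2-PBS replicate 2 or 3 or Atg5-/- AT2-BLM replicate 3. Endothelial genes summed to 15.3, 35.5 and 10.97 and 46.1, 49.2 and 47.0 FPKM, with 5 of 6 higher and no overlap, and erythrocyte genes to 81.1, 411 and 55.3 and 336, 392 and 378, with 2 of 3. Fibroblast and matrix genes had 2 of 11 higher, and epithelial markers 1 of 6. Club cell genes fell in 5 of 7 cases, with sums of 11938, 11712 and 5011 FPKM against 1371, 2212 and 1860.2, which were apart. Cckar, a cholecystokinin receptor on that list, was among the 12 largest falls, with 8.11, 18.9 and 12.5 FPKM in AT2-PBS and 3.78, 1.49 and 0.640 in Atg5-/- AT2-BLM (log2 fold change -2.32, standard error 0.38, adjusted p = 0.0104). Scgb1a1, the club cell secretoglobin, outside the naming rule, stood at 11512, 11306 and 4776 FPKM in AT2-PBS and 1049, 2101 and 1753 in Atg5-/- AT2-BLM and at 48354, 83587 and 22572 FPKM in Atg5-/- AT2-PBS. Of ciliated cell genes 1 of 4 fell, and 0 were called against AT2-PBS of 2 mesothelial, 10 islet and acinar and 3 Y-linked genes in limma, with 0 at an unadjusted p under 0.05.

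Against injured wild-type cells, the 1 gene with an adjusted p under 0.05 in limma was Ear10, an eosinophil-associated ribonuclease on the macrophage list. Near-identical copies make its counting uncertain. The number of such genes was 0 with a pseudocount of 0.1, scaling to Cdh1, a replicate block or a fit of only the 2 groups. It was also 0 without any 1 AT2-BLM replicate. Ear10 stood at 0.405, 0 and 0 FPKM in AT2-PBS and 2.92, 6.65 and 8.30 in Atg5-/- AT2-BLM and at 0, 0 and 0.579 FPKM in AT2-BLM (log2 difference 2.49, 95% interval 1.82 to 3.16, adjusted p = 0.0367). Its Atg5-/- AT2-PBS libraries were at 60.4, 74.6 and 56.6 FPKM, the highest of the 4 groups. Ear10, and Gm2663 below, reached 1 FPKM only in Atg5-null libraries, so both passed the filter only through groups where they are high. Their p-values and intervals are therefore no support for a difference. Ifitm6, an interferon-induced membrane protein, stood at 0.160, 0 and 0 FPKM in AT2-PBS and 4.30, 6.76 and 5.25 in Atg5-/- AT2-BLM and at 1.18, 1.93 and 0.725 FPKM in AT2-BLM, a difference of 1.51 (95% interval 0.25 to 2.78). Gm2663, a predicted gene at low level, was above AT2-BLM by 1.30 (95% interval 0.40 to 2.201), and Cap1, an actin-binding protein that was not called against AT2-PBS, by 1.86 (95% interval 0.52 to 3.21). Beside Cldn4, large falls against AT2-BLM included the following. Ivl, involucrin, differed from AT2-BLM by -2.10 (95% interval -3.63 to -0.57), Msln, the mesothelial marker mesothelin, by -2.50 (95% interval -4.37 to -0.64), Anxa8, an annexin, by -1.84 (95% interval -2.95 to -0.74) and Fam46b by -2.02 (95% interval -3.11 to -0.93). AT2-BLM replicate 3 was the highest library for all 4, and against AT2-PBS the call was reached by Fam46b (log2 fold change 1.69, standard error 0.50, adjusted p = 0.0798) but not by Ivl, Msln or Anxa8. Of the mesothelium list, 2 of 2 tested genes were lower than in AT2-BLM, with sums of 0.916, 1.68 and 0.938 FPKM in Atg5-/- AT2-BLM and 1.71, 13.5 and 62.6 FPKM in AT2-BLM, and the part of mesothelial RNA in these falls was not tested.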

How the data were processed

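RNA was sequenced from sorted AT2 cells in 12 libraries, 3 per group. The authors deposited gene FPKM values from Cufflinks 2.2.1 on mm9. Their methods name STAR as the aligner, while the submitters' processing notes list Trimmomatic 0.36, HISAT2 2.2.1.0 and HTSeq 0.9.1. No count table was used, so depth is unknown beyond the relative steps of low values. From these values, log2(FPKM + 1) was computed for the 10675 of 21878 genes with at least 1 FPKM in at least 3 libraries, which understates changes of low genes. Groups followed the sample titles (the description numbers AT2-PBS replicate 3 differently). In R 4.3.3, limma 3.58.1 fitted 1 model over all 4 groups with a mean-variance trend and Benjamini-Hochberg adjustment, after a test of the code on simulated data. The call rule, a limma p of 0.05 without adjustment and a 1.4-fold change, followed the study's methods. An exact two-sided permutation test of 3 libraries against 3 cannot go below 0.1. Named genes were the 12 largest rises and falls with an adjusted p under 0.05 and separate ranges, up to 4 called members per list, the genes the study names, and the 5 largest rises and falls against AT2-BLM with separate ranges. Krt8, Krt18, Aen, Bax, Mdm2, Ccnd1, Mki67, Fos, Socs3, Hp, Gapdh, Sqstm1 and Scgb1a1 were added after their values were seen. The comparison, the gene lists and the rule were chosen with earlier results of these data known. Names of 27 genes had been turned into dates in the table. Promoters came from a RefSeq table (GRCm38.p6). Figures used Python 3.11.15 and matplotlib 3.10.9. Alternatives covered the pseudocount, the filter, the scaling (quantile, median-ratio, Cdh1), the groups in the fit, the replicate block, the threshold and each library left out. Leaving out the 1 library of each compared group with Y-linked genes near 0 was chosen after seeing the data.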

Additional observations from a re-analysis of the deposited data

How the results depend on the processing

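The values carry no counts, so the precision of a single FPKM is unknown and low levels cannot be told from 0 beyond the filter. Against AT2-PBS the 1849 calls became 386 with an adjusted p under 0.05 and 599 with a fold change of at least 2, and lay between 1440 and 2328 when 1 library was left out. Against AT2-BLM the 551 calls became 1 and 101 under the same thresholds and 827 with the Y-linked sum as a covariate, and lay between 379 and 807 when 1 library was left out. Without replicate 1 of AT2-PBS and of Atg5-/- AT2-BLM, the libraries of near-0 Y-linked genes in these groups, the counts were 2395 and 722. AT2-BLM replicates 1 and 2, also near 0, stayed in, so the second count does not balance the Y-linked levels. The number of genes past an adjusted p of 0.05 against AT2-PBS was 92 when the fit held only the 2 groups, 96 with scaling to Cdh1, 154 without the filter, 502 with a pseudocount of 0.1, 794 without the libraries of near-0 Y-linked genes, and 53 to 753 with 1 library left out. Against AT2-BLM the split of 218 higher and 333 lower became 268 and 261 with median-ratio scaling, 250 and 265 with quantile normalization, 348 and 327 without Atg5-/- AT2-BLM replicate 1 and 379 and 343 without the libraries of near-0 Y-linked genes. With a replicate block the counts were 1848 and 558. Same-numbered libraries did not deviate together (correlations of -0.13, -0.30 and -0.12 against AT2-PBS), so the numbers do not pair the samples. Of 122 named genes, 107 were called against AT2-PBS, and all 107 had the same sign in all 24 alternatives. Many alternatives could not change a sign, since thresholds, filter, trend, block and libraries of the other groups leave this log2 fold change as it is. Most of these genes were also named because they were called, so the shared sign is no test of them. The sign turned for 4 genes that were not called. Atg5 moved to 0.0099 without the libraries of near-0 Y-linked genes and ranged from -0.44 to 0.0311 with 1 library left out. Fasn moved to -0.0669 with quantile normalization, -0.0597 with median-ratio scaling and -0.0028 with scaling to Cdh1, and ranged from -0.10 to 0.31. Aqp5 ranged from -0.19 to 0.0559 and Msln from -0.54 to 0.26. The cause of these shifts was not tested.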
